A study of Mus musculus with 13 samples.

Results

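The 8 genes described here encode enzymes that make NADPH or that belong to the pentose phosphate pathway, namely G6pdx, Pgd, Me1, Idh1, Nnt, Mthfd1, Taldo1 and Tkt. They were chosen by name, from their known function, with earlier results of these data known. They were found through their Entrez identifiers in a table of 23366 genes measured by RNA sequencing in mouse pancreas. All 8 were present, with a value in each of the 13 mice. The mice were 4 young (13 weeks), 5 old (55 weeks) and 4 old-OSKM animals. All of them, controls included, were females of the reprogrammable i4F-B strain, in which doxycycline switches on the factors OCT4, SOX2, KLF4 and MYC (OSKM) throughout the body from a cassette that sits in Pparg. Young and old mice received no doxycycline. The old-OSKM mice began at 55 weeks, drank doxycycline for 7 days, recovered for 2 weeks without it and were sampled at 58 weeks. No doxycycline-treated mice without the cassette were part of this table, so that doxycycline and OSKM cannot be told apart, and the old-OSKM mice were also 3 weeks older than the old mice. The whole pancreas was sequenced, and in such bulk tissue fewer cells of a type and less RNA per cell cannot be told apart.

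NADPH is the electron donor for fatty acid and sterol synthesis, for the desaturation and hydroxylation of many substrates, and for keeping glutathione and thioredoxin reduced. The oxidative branch of the pentose phosphate pathway (glucose-6-phosphate dehydrogenase, a lactonase and 6-phosphogluconate dehydrogenase) makes cytosolic NADPH and ribulose phosphate, and the non-oxidative branch (transketolase and transaldolase) returns the pentoses to glycolysis. Malic enzyme, isocitrate dehydrogenase and the folate enzyme MTHFD1 are further cytosolic sources, whereas the transhydrogenase NNT makes NADPH in mitochondria from the proton gradient. In the exocrine pancreas, acinar cells need reducing power and nucleotides for a very high rate of protein synthesis and oxidative folding.

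Start-site sequences of 7 of the 8 genes matched the RefSeq promoter set (GRCm38.p6, 250 bases before to 50 bases after the start); Nnt was the exception. Those of G6pdx, Pgd and Me1 are shown, because the first and second encode the NADPH-making steps of the oxidative branch, whose levels are set side by side below, and the third varied most between mice. Each runs from 150 bases before the start to the first 10 transcribed bases, 5′ to 3′ on the strand of the gene, which is the minus strand for all 3. The positions are chrX:74428871-74429030 for G6pdx, chr4:149166696-149166855 for Pgd and chr9:86695905-86696064 for Me1. Capitals mark matches, on either strand, to the core of the antioxidant response element (TGACNNNGC), which NRF2 binds, or to the CCAAT box (CCAAT):
G6pdx: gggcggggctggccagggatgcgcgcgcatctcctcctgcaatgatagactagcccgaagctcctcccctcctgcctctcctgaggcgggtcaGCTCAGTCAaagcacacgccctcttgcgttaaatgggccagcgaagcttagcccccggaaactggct
Pgd: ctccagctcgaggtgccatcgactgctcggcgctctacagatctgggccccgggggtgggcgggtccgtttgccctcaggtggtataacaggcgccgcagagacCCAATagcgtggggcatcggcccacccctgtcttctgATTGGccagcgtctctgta
Me1: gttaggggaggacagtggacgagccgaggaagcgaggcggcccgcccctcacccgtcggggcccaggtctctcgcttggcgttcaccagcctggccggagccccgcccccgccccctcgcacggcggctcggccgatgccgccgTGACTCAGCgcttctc
The antioxidant response element core matched in G6pdx at -57 to -49 and in Me1 at -6 to 3, where 1 is the first transcribed base, and in none of the other 5 windows. It matched in 12.4% of all 32851 windows of the same length. The CCAAT box matched in 4 of the 7 genes (Pgd, Idh1, Mthfd1 and Taldo1), against 37.4% of all windows, and the GC box (GGGCGG) in all 7, against 35.7%. The E-box (CACGTG) matched in none of the 7, against 7.15% of all windows. None of the 4 motifs contains another, and a match is a stretch of letters, not a measured binding site.

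The read depth of each library cannot be derived from the table, and the counting error behind each value was not estimated. Acinar identity was clear in every mouse, with 12 of 12 acinar markers above 0 on the log2 RPKM scale throughout. Old-OSKM replicate 4 stood apart from the other libraries. It held the lowest value of the 13 mice in 44.7% of all genes, against 2.7% to 11.3% in each of the other mice, and limma gave it a weight of 0.0985, against 0.608 to 2.33 for the others. That share counts all genes, also those near the floor, where this library could be lowest by a small margin. Tktl2, for example, was at -4.06 in it and at -4.01 to -3.92 in the other mice. The share among expressed genes alone is not given here. Many values that move with this library are given with and without it. Markers of other cell types also differed between mice, among them adipocyte markers (summed RPKM of the 10 genes 19.5 and 22.1 in old-OSKM replicates 4 and 1, and 4.74 to 10.9 in the other mice) and hepatocyte markers (summed RPKM 89.7 in young replicate 3, 8.52 in old replicate 4 and 1.67 to 2.69 elsewhere). Old-OSKM replicates 1 and 4 were the highest mice for macrophage markers too (summed RPKM 42.3 and 35.4, against 10.8 to 23 elsewhere). Old-OSKM replicate 1 was highest for T cell (7.82, against 0.987 to 2.3), B and plasma cell (14, against 1.14 to 8.55) and proliferation markers (5.32, against 1.04 to 2.47) and lowest for islet markers (80.9), whereas old-OSKM replicate 4 was highest for islet (512), fibroblast (72.8, against 20.1 to 53.8), endothelial (28.3, against 12.6 to 22.9), duct (50.2, against 34.8 to 47.8) and erythroid markers (104, against 34.9 to 68.5). Of the marker genes, Plin1, Col1a1 and Col1a2 were called higher in old-OSKM than in old mice, Jchain higher and Col1a1 and Col3a1 lower in old than in young mice, and Jchain, Cd79b, Ms4a1 and Cd3g higher in old-OSKM than in young mice. What part these markers had in the results on the enzymes was not tested beyond the values given below. Transcripts of the cassette factors did not fully separate the groups 2 weeks after doxycycline. Pou5f1 was at -0.61, -0.71, -2.06 and -0.80 log2 RPKM in old-OSKM mice. It was between -1.38 and -0.87 in old mice and between -1.70 and -0.71 in young mice. All old-OSKM mice except replicate 3 were thus above all old mice for Pou5f1. Myc was between 1.91 and 2.69 in old-OSKM mice and between 2.06 and 2.88 in old mice. Sox2 (old-OSKM minus old 0.057, limma adjusted p = 0.95), Klf4 (0.040, adjusted p = 0.93) and Pparg, the gene that holds the insertion (-0.23, adjusted p = 0.61), were likewise not called.

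The 8 enzymes spanned about an order of magnitude in level. RPKM divides by transcript length, so levels can be set side by side. Over the 13 mice the mean log2 RPKM was 2.78 ± 0.19 (SD) for Taldo1, 2.63 ± 0.14 for Nnt, 1.82 ± 0.19 for Tkt, 1.77 ± 0.14 for Idh1, 1.66 ± 0.18 for Mthfd1, 0.88 ± 0.18 for Pgd, 0.80 ± 0.20 for G6pdx and -0.48 ± 0.38 for Me1, which corresponds to 6.88 RPKM at the top and 0.715 RPKM at the bottom. Taldo1 had a higher mean than 96.8% of all genes in the table and Me1 than 57.2%. In this order, 3 steps were seen in 13 of 13 mice, namely Nnt above Tkt, Mthfd1 above Pgd, and G6pdx above Me1. The other neighbours overlapped. Taldo1 was above Nnt in 11 of 13 mice, Tkt above Idh1 in 8, Idh1 above Mthfd1 in 9 and Pgd above G6pdx in 9. The non-oxidative enzymes transaldolase and transketolase therefore had more transcript than the oxidative G6pdx and Pgd, which were near each other.

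**Figure D1:**
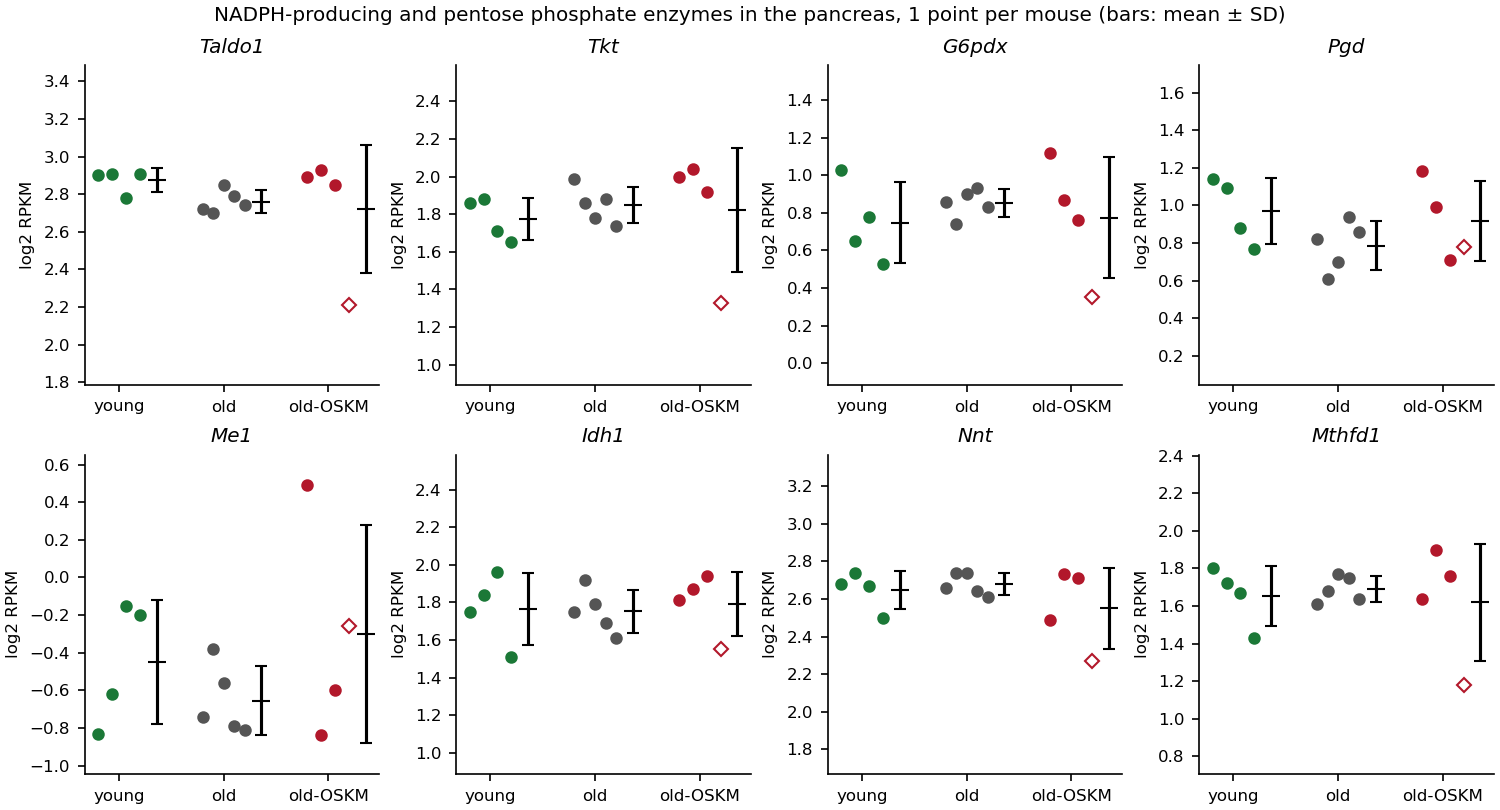
Log2 RPKM of the 8 enzymes (vertical axis, every panel spans the same number of log2 units) in each young, old and old-OSKM mouse, with mean ± SD beside the points. The open diamond is old-OSKM replicate 4, the lowest of the 13 mice for Taldo1, Tkt, G6pdx, Nnt and Mthfd1, and in every panel the groups overlap.

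To ask whether aging or transient OSKM expression altered these enzymes, the 3 groups were compared gene by gene on the log2 scale. None of the 8 enzymes was called in any comparison, where a call needed both more than 1.5-fold and a raw p below 0.01. By limma, 207 of 23366 genes (0.886%) passed this rule between old and young mice, 176 (0.753%) between old-OSKM and old mice and 146 (0.625%) between old-OSKM and young mice, so that a set of 8 genes without a call lies near the background. At a raw p under 0.05 with no fold threshold the count of members was also 0 in each comparison, against 5.52%, 8.07% and 5.07% of all genes, and 0 had an adjusted p under 0.05, against 0.0813%, 0.00428% and 0.0428%. By limma with Benjamini-Hochberg adjustment, the smallest adjusted p of a member was 1 with age, 0.61 between old-OSKM and old mice and 0.71 between old-OSKM and young mice. No member had groups that did not overlap, against 2.71%, 1.73% and 1.9% of all genes. The old and old-OSKM comparisons share their old mice, and the differences are therefore given side by side and not set against each other. With age, 4 members were higher and 4 lower, with a median difference of 0.0059 (all genes 0.0012). Between old-OSKM and old mice, 3 were higher and 5 lower, with a median of -0.034 (all genes -0.039). Between old-OSKM and young mice, 4 were higher and 4 lower, with a median of -0.0045 (all genes -0.038). Old-OSKM replicate 4 decided signs in the comparisons with old-OSKM mice, whereas with age 4 members were higher and 4 lower also without it. Without this library 7 of the 8 members were higher in old-OSKM than in old mice, with a median of 0.12 (all genes -0.018). In the same fit 6 of 8 were higher in old-OSKM than in young mice, with a median of 0.11 (all genes -0.018). At a raw p under 0.05, each comparison then held 1 member, and 0 were called. The share of all genes in this fit is not given here, so that these counts have no background beside them.

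The intervals show how large a difference could have been missed. For 7 of the 8 enzymes, all except Me1, no 95% interval in any comparison reached 1.5-fold (0.58 on the log2 scale). The widest bound among them was that of Taldo1 between old-OSKM and young mice, at 1.36-fold, followed by Pgd between old and young mice at 1.35-fold. For Me1 the bounds were 1.66-fold with age, 1.84-fold between old-OSKM and old mice and 1.63-fold between old-OSKM and young mice. These intervals cover the spread between mice as limma estimates it and do not show that the groups were alike below those sizes.

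**Figure D2:**
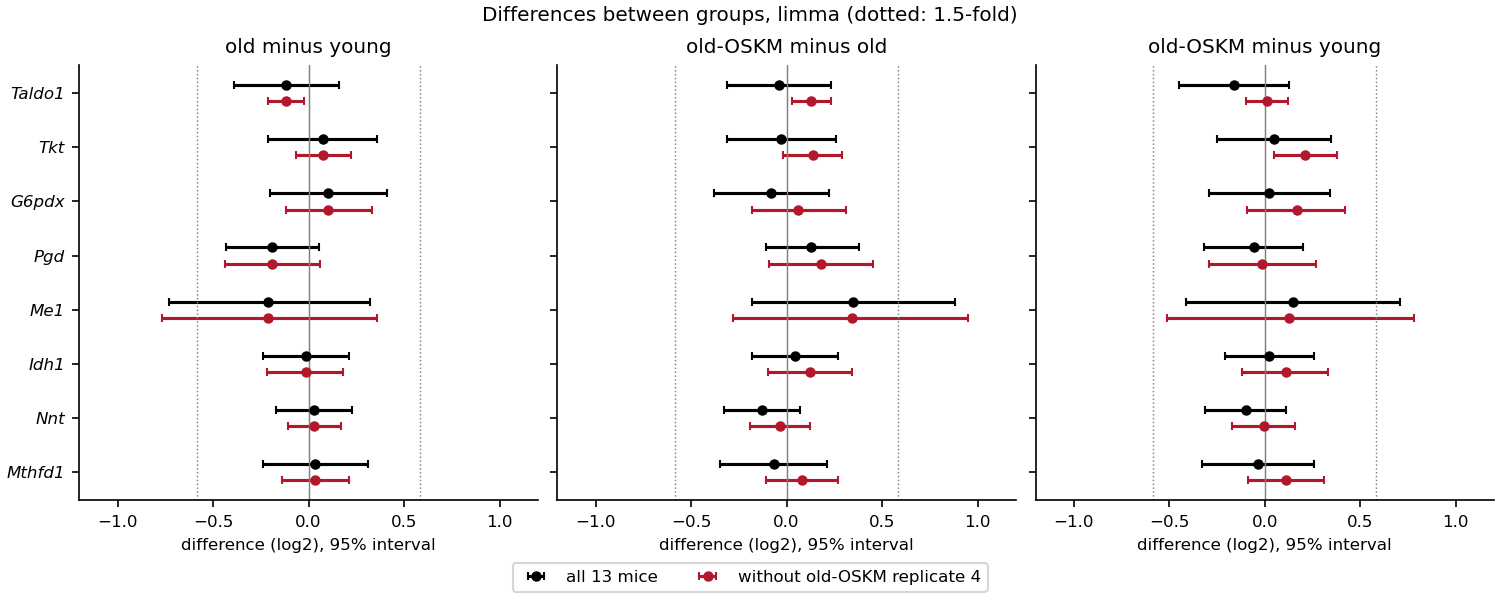
Differences in log2 RPKM (horizontal axis) for the 8 enzymes with 95% intervals from limma, for 13 mice (black) and without old-OSKM replicate 4 (red), in each of the 3 comparisons. With all mice every interval includes 0, and the Me1 intervals alone cross the dotted lines at 1.5-fold.

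G6pdx (Entrez 14381, chrX:74409483-74428880) encodes glucose-6-phosphate dehydrogenase, which commits glucose to the oxidative branch and is its rate-limiting step. Its log2 RPKM was 1.03, 0.65, 0.78 and 0.53 in the young mice, 0.86, 0.74, 0.90, 0.93 and 0.83 in the old mice and 1.12, 0.87, 0.76 and 0.35 in the old-OSKM mice. The old mice sat within the range of both other groups, and both the highest and the lowest of the 13 values were in old-OSKM mice. The log2 difference was 0.10 ± 0.14 (SE) with age and -0.080 ± 0.14 from old to old-OSKM mice. Without old-OSKM replicate 4 the latter was 0.061. G6pd2, an intronless copy of G6pdx, lay between -3.73 and -2.40 in the 13 mice; how reads common to both genes were shared out was not examined.

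Pgd (Entrez 110208, chr4:149149991-149166705) encodes 6-phosphogluconate dehydrogenase, the next NADPH-making step. Its values were 1.14, 1.09, 0.88 and 0.77 in young mice, 0.82, 0.61, 0.70, 0.94 and 0.86 in old mice and 1.18, 0.99, 0.71 and 0.78 in old-OSKM mice. The 2 highest young mice were above all old mice and the other 2 were within their range. This was the smallest p of any member with age, at a difference of -0.19 ± 0.11 (SE, adjusted p = 1), and from old to old-OSKM mice the difference was 0.13 ± 0.11 (0.18 without old-OSKM replicate 4). Among the mice with sample numbers below 641, which leaves 2 young and 4 old mice, the difference with age was -0.35 ± 0.14 (95% interval -0.67 to -0.031, adjusted p = 1), or 1.28-fold. With array weights and all 13 mice it was -0.22 (95% interval -0.43 to -0.0032), also with a raw p under 0.05.

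Set against G6pdx in the same mouse, Pgd was placed higher in young mice than in old mice. The log2 difference Pgd minus G6pdx was 0.12, 0.44, 0.10 and 0.24 in the young mice, -0.038, -0.14, -0.20, 0.0064 and 0.027 in the old mice and 0.065, 0.12, -0.046 and 0.43 in the old-OSKM mice. The 4 young and 5 old mice did not overlap, and old-OSKM mice spread over both ranges. Such within-mouse differences were formed for all 28 pairs of members after the values had been seen. In 3 pairs (10.7%) the young and old mice did not overlap. Of the 21 pairs without Me1, whose mean is below 0, these were 14.3%, against 4.47% of all pairs of genes with a mean log2 RPKM over 0. The other two pairs were Pgd with Tkt (Pgd minus Tkt -0.88 to -0.72 in young and -1.25 to -0.89 in old mice) and Mthfd1 with Taldo1 (Mthfd1 minus Taldo1 -1.47 to -1.11 in young and -1.10 to -1.03 in old mice), both with the groups nearly touching. Pairs that share a gene are not independent, and no test was made. Between old-OSKM and old mice 0 of the 28 pairs did not overlap (2.36% of all such pairs of genes), and between old-OSKM and young mice 1 pair did not (4.76% of the 21 pairs, against 2.3%), which was Taldo1 with Tkt.

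**Figure D3:**
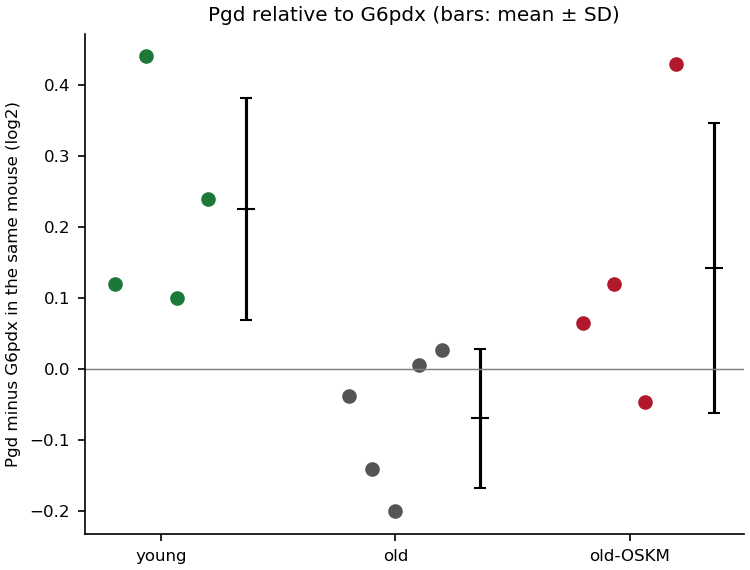
Log2 RPKM of Pgd minus that of G6pdx in the same mouse (vertical axis) for young, old and old-OSKM mice, with mean ± SD. The 4 young mice lie between 0.10 and 0.44, all above the 5 old mice, and the old-OSKM mice cover both.

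In the non-oxidative branch, Taldo1 (Entrez 21351, chr7:141392160-141402976) encodes transaldolase. Its log2 RPKM was 2.90, 2.91, 2.78 and 2.91 in young mice, 2.72, 2.70, 2.85, 2.79 and 2.74 in old mice and 2.89, 2.93, 2.85 and 2.21 in old-OSKM mice. Apart from old-OSKM replicate 4, the values lay within a narrow band, with 3 of 4 young mice above all old mice and the other old-OSKM mice at or above the highest old mouse to 2 decimals. With all mice the difference was -0.12 ± 0.12 (SE) with age and -0.041 ± 0.12 from old to old-OSKM mice. Without old-OSKM replicate 4 these were -0.12 ± 0.042 (adjusted p = 0.50) and 0.13 ± 0.046 (adjusted p = 0.68), both with a raw p under 0.05. The value of old-OSKM minus young mice went from -0.16 to 0.011. At 1.08-fold and 1.09-fold, neither of the former passed the rule for a call. In a fit of the young and old mice alone, which uses no old-OSKM mouse, the difference with age was -0.12 ± 0.043 and also had a raw p under 0.05. Of all member results under every alternative, the smallest raw p was also for Taldo1, under 0.01 with age (difference -0.15, adjusted p = 0.27) without old-OSKM replicate 4 and young replicate 3, a choice made after the values were seen.

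Tkt (Entrez 21881, chr14:30549131-30574724) encodes transketolase, which exchanges carbon units between the pathway and glycolysis. It was at 1.86, 1.88, 1.71 and 1.65 in young mice, 1.99, 1.86, 1.78, 1.88 and 1.74 in old mice and 2.00, 2.04, 1.92 and 1.33 in old-OSKM mice. Here 3 old-OSKM mice were at the upper end of all mice, and replicate 4 was the lowest of the 13, as it was for Taldo1. The differences with all mice were 0.075 ± 0.13 (SE) with age, -0.027 ± 0.13 between old-OSKM and old mice and 0.048 ± 0.14 between old-OSKM and young mice. Without old-OSKM replicate 4 the last of these was 0.21 ± 0.073 (raw p under 0.05, adjusted p = 0.70) and old-OSKM minus old was 0.14 ± 0.070 (adjusted p = 0.80), or 1.16-fold and 1.1-fold.

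Me1 (Entrez 17436, chr9:86581363-86695914) encodes cytosolic malic enzyme, which supplies NADPH for fatty acid synthesis and is abundant in fat and liver. It was the lowest of the 8 enzymes and the most variable, with a range of 1.33 log2 units against 0.45 to 0.77 for the others. Its log2 RPKM was -0.83, -0.62, -0.15 and -0.20 in young mice, -0.74, -0.38, -0.56, -0.79 and -0.81 in old mice and 0.49, -0.84, -0.60 and -0.26 in old-OSKM mice. The highest and the lowest value were both in old-OSKM mice, and the old mice formed the narrowest group. From old to old-OSKM mice it differed by 0.35 ± 0.24 (SE, adjusted p = 0.61), the largest value of any member in the 3 comparisons, and with age by -0.21 ± 0.24 (adjusted p = 1). The former was 0.53 (raw p under 0.05) without old-OSKM replicate 2 and 0.089 without replicate 1.

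Me1 was highest in the mice with the highest adipocyte markers. Old-OSKM replicate 1, the highest for Me1, had a mean log2 RPKM of 0.62 over the 10 adipocyte markers, of which 6 were above 0, and old-OSKM replicate 4 had -0.22 with 4 above 0. Young replicates 3 and 4, the next highest for Me1, had -1.16 and -1.36, and the other 9 mice lay between -2.24 and -1.77 with 1 to 3 markers above 0. Across the 13 mice Pearson's r was 0.89 (permutation p = 0.00028, adjusted 0.0022 over the 8 members) and Spearman's rho 0.76 (permutation p = 0.0038, adjusted 0.030). Without old-OSKM replicates 1 and 4, the 2 mice farthest from the median, r was 0.83 (n = 11). Young replicates 3 and 4 were the highest of these 11 mice for both Me1 and the markers, and r without them as well was not computed. Other markers were also high in old-OSKM replicate 1, and Me1 was set against all 12 marker lists. Macrophage markers had r = 0.70 (permutation p = 0.014, adjusted 0.082 over the 12 lists) and T cell markers r = 0.66 (permutation p = 0.036, adjusted 0.14), with rho of 0.26 and 0.13. Without old-OSKM replicates 1 and 4 these r were 0.10 and -0.17. Over the 12 lists the adjusted permutation p of the adipocyte markers was 0.0034 for r and 0.046 for rho, and that of every other list was 0.082 or more for r and 0.19 or more for rho. Whether the adipocyte relation differs from the others was not tested. With the adipocyte level as a covariate Me1 differed by -0.15 ± 0.14 (adjusted p = 1) between old-OSKM and old mice, and without old-OSKM replicates 1 and 4 by -0.063. Nnt had r = -0.74 (permutation p = 0.014, adjusted 0.056) and rho = -0.49 (permutation p = 0.092, adjusted 0.37) with the adipocyte markers. Without old-OSKM replicates 1 and 4 its r was -0.39, so that this relation rests largely on them. For the other 6 members r was between -0.54 and 0.25, with adjusted permutation p of 0.18 or more.

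**Figure D4:**
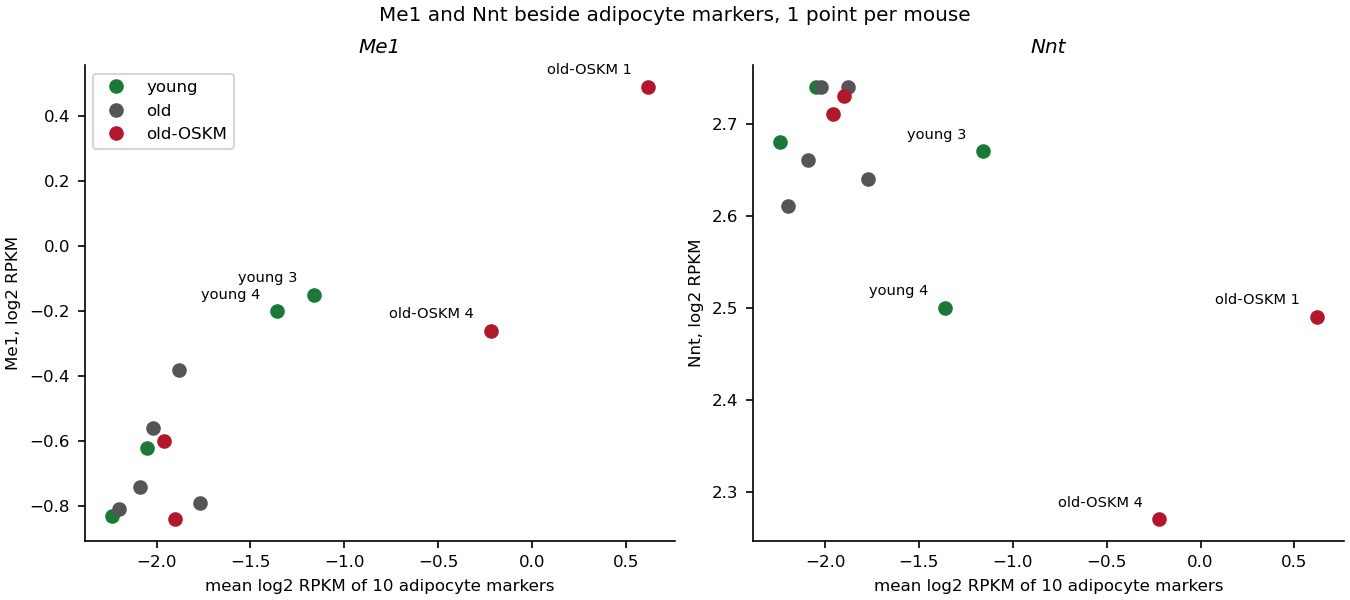
Log2 RPKM of Me1 (left) and Nnt (right) against the mean log2 RPKM of 10 adipocyte markers (horizontal axes), 1 point per mouse. Me1 is highest in old-OSKM replicate 1, the mouse with the highest adipocyte level (0.62), and the 2 old-OSKM mice with high adipocyte levels have the lowest Nnt values.

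Idh1 (Entrez 15926, chr1:65158616-65186479) encodes cytosolic and peroxisomal isocitrate dehydrogenase. It had the narrowest range of the members, at 1.75, 1.84, 1.96 and 1.51 in young mice, 1.75, 1.92, 1.79, 1.69 and 1.61 in old mice and 1.81, 1.87, 1.94 and 1.55 in old-OSKM mice. The 3 groups covered nearly the same range. The highest value was in young replicate 3, the mouse with hepatocyte transcripts, whose part in it was not tested. The differences were -0.016 ± 0.10 (SE) with age and 0.042 ± 0.10 between old-OSKM and old mice, the latter 0.12 without old-OSKM replicate 4.

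Nnt (Entrez 18115, chr13:119335527-119409257) encodes nicotinamide nucleotide transhydrogenase of the inner mitochondrial membrane. Its log2 RPKM was 2.68, 2.74, 2.67 and 2.50 in young mice, 2.66, 2.74, 2.74, 2.64 and 2.61 in old mice and 2.49, 2.73, 2.71 and 2.27 in old-OSKM mice. The lowest values were in the 2 old-OSKM mice with high adipocyte markers, while the other 2 old-OSKM mice were near the top. From old to old-OSKM mice the difference was -0.13 ± 0.091 (SE), and without old-OSKM replicate 4 it was -0.034. With age it was 0.028 ± 0.091.

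Mthfd1 (Entrez 108156, chr12:76254406-76319820) encodes the cytosolic enzyme that interconverts folate-bound carbon units and makes NADPH in its dehydrogenase step. It was at 1.80, 1.72, 1.67 and 1.43 in young mice, 1.61, 1.68, 1.77, 1.75 and 1.64 in old mice and 1.64, 1.90, 1.76 and 1.18 in old-OSKM mice. Old-OSKM mice again held both the highest and the lowest value. The differences were 0.034 ± 0.13 (SE) with age and -0.068 ± 0.13 between old-OSKM and old mice, the latter 0.079 without replicate 4.

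The members varied together across mice to an extent that depended on old-OSKM replicate 4. Of the 28 pairs, 12 had a Pearson's r over 0.5 across the 13 mice and 7 across the 12 mice without that library, and the median r was 0.43 and 0.15. Nnt and Mthfd1 had r = 0.89 and 0.70, Mthfd1 and Tkt 0.83 and 0.54, and Idh1 and Nnt 0.69 and 0.62. In contrast, Taldo1 and Tkt, which act together in the non-oxidative branch, had r = 0.75 with all mice and 0.13 without that library, and G6pdx and Taldo1 had 0.61 and 0.02. G6pdx and Pgd had 0.49 and 0.51. Me1 had no r over 0.15 with any member, and -0.51 with Nnt. These values describe 13 libraries that share a normalization and carry no test.

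Each enzyme was also set against all other genes with a mean log2 RPKM over 0 (8407 genes, or 8408 for Me1) to find the 3 with the highest Pearson's r across the 13 mice. For G6pdx these were Ctsc, Rgs19 and Cmpk2 (r = 0.93 to 0.94), and for Pgd Zmat2, Hsp90aa1 and Eif4a1 (0.87 to 0.91). For Me1 they were Cd9, Sh3bgrl and Srgn (0.86 to 0.88), and for Idh1 Ap4s1, Gcdh and Arhgef19 (0.83 to 0.89). For Nnt they were Prkaca, Samm50 and Adi1 (0.96 to 0.97), for Mthfd1 Atp6v0d1, Rhbdf2 and Gga2 (0.96 to 0.97), for Taldo1 Nudt19, Ap2s1 and Tomm40l (0.97 each) and for Tkt Mrpl14, F8a and Slc25a5 (0.94 to 0.97). Without old-OSKM replicate 4 the r of these 24 genes was between 0.79 and 0.92. They are the best of all genes compared and describe likeness only.

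The genes around the 8 enzymes were called as rarely as the enzymes themselves. Of 76 further genes in 7 lists (other NADPH producers, other pentose phosphate genes, NADPH-using redox enzymes, NADPH-using synthesis enzymes, targets and regulators of NRF2, lipogenic genes and the entry to glycolysis), 0 were called in any comparison with all mice. At a raw p under 0.05, 0 were higher and 2 lower with age, 4 higher and 2 lower between old-OSKM and old mice, and 2 higher and 4 lower between old-OSKM and young mice. Of all genes, 5.52%, 8.07% and 5.07% had such a p in these comparisons, so that the counts lie near the background. The median difference of the 76 was 0.0033, -0.067 and -0.043, against 0.0012, -0.039 and -0.038 for all genes.

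Among other NADPH producers, 11 genes, Idh2, the mitochondrial isocitrate dehydrogenase, had the smallest p with age (difference -0.12, adjusted p = 1). Between old-OSKM and old mice Nadk, the kinase that makes NADP, was at -0.13, the mitochondrial folate enzyme Mthfd2 at -0.20 and H6pd, which makes NADPH in the endoplasmic reticulum, at 0.35, all with a raw p under 0.05 and an adjusted p = 0.55. Old-OSKM replicate 4 held the lowest Nadk (2.53) and Mthfd2 (2.61) and the highest H6pd (1.30) of the 13 mice, and without it the differences were -0.075, -0.12 and 0.20, none with a raw p under 0.05. Nadk was also at -0.14 (adjusted p = 0.71) between old-OSKM and young mice, and at -0.082 without that library. Among 11 other pentose phosphate genes none had a raw p under 0.05. Prps1, which makes phosphoribosyl pyrophosphate from the ribose phosphate of the pathway, had the smallest with age (difference 0.11) and between old-OSKM and old mice (-0.18, and -0.074 without old-OSKM replicate 4), and Tktl1, which was at or below -3.40 in all mice, between old-OSKM and young mice (0.13, and 0.20 without that library).

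The gene nearest to a call by its p was Cyb5r3, an NADH-dependent cytochrome b5 reductase that was listed here with the 10 NADPH-using redox enzymes although NADH is its main donor. Its log2 RPKM was 2.53, 2.63, 2.50 and 2.69 in young mice, 2.21, 2.47, 2.25, 2.28 and 2.27 in old mice and 2.39, 2.54, 2.51 and 2.63 in old-OSKM mice. All young mice were above all old mice, and 3 of 4 old-OSKM mice were above all old mice. Young and old mice did not overlap in 2.71% of all genes, and in 1 of the 10 genes of this list. The difference was -0.29 ± 0.067 (SE, adjusted p = 0.23) with age and 0.22 ± 0.067 (adjusted p = 0.55) from old to old-OSKM mice, both with a raw p under 0.01, or 1.23-fold and 1.17-fold, short of the fold threshold and of an adjusted p under 0.05. In the same list Cbr1, a carbonyl reductase, was at -0.21 (adjusted p = 0.71) between old-OSKM and young mice.

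Among 10 targets and regulators of NRF2, Slc7a11, the cystine transporter subunit that feeds glutathione synthesis, fell just short of the fold threshold with age. It was at 1.42, 0.79, 0.74 and 0.64 in young mice, 0.56, 0.26, 0.30, 0.52 and 0.02 in old mice and 0.40, 0.81, 0.20 and 0.21 in old-OSKM mice. All young mice were above all old mice, against 2.71% of all genes in which these groups did not overlap. Young replicate 1 was far above the other mice. The difference with age was -0.56 ± 0.18 (SE, raw p under 0.01, adjusted p = 0.61), or 1.48-fold. Leaving out single mice moved it across the fold threshold: it was -0.39 (adjusted p = 0.92) without young replicate 1, but was called at 1.57-fold (adjusted p = 0.69) without young replicate 4 and at 1.54-fold (adjusted p = 0.66) without old replicate 1. Between old-OSKM and old mice it was 0.075 (adjusted p = 0.85), and between old-OSKM and young mice -0.49 (adjusted p = 0.71), where it was called at 1.54-fold (adjusted p = 0.49) without old-OSKM replicate 2. Keap1, the inhibitor of NRF2, had the smallest p of this list when old-OSKM mice were set against old mice (0.15, adjusted p = 0.55), and Maf was at 0.65 (adjusted p = 0.55), and at 0.44 without old-OSKM replicate 4. With all mice Maf was past 1.5-fold but did not reach a raw p below 0.01. Of the 10 differences between old-OSKM and old mice 7 were above 0, and 5 without old-OSKM replicate 4.

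In the 12 NADPH-using synthesis enzymes, which make fatty acids, sterols, sphingolipids, tetrahydrofolate and proline, 12 of 12 differences between old-OSKM and old mice were below 0, with a median of -0.13 against -0.039 for all genes, and none had a raw p under 0.05. Without old-OSKM replicate 4, 8 of the 12 were above 0, with a median of 0.097 (all genes -0.018). The smallest p was that of Kdsr (-0.15, adjusted p = 0.61), which was also at -0.20 (adjusted p = 0.71) between old-OSKM and young mice, and with age that of Tecr (0.15, adjusted p = 1). Old-OSKM replicate 4 had the lowest value of the 13 mice for both Kdsr (0.33) and Tecr (2.37), and without it the differences of Kdsr were -0.076 and -0.13. Among 10 lipogenic genes the smallest p were those of Acly with age (difference 0.13), Mlxipl between old-OSKM and old mice (-0.41) and Mlx between old-OSKM and young mice (-0.17), none with a raw p under 0.05. Leaving out old-OSKM replicate 4 put Mlxipl at -0.62, with a raw p under 0.05 (adjusted p = 0.68), and Mlx at -0.033. Among 12 genes of the entry to glycolysis, Hk1 had the smallest p with age (difference 0.083), Pfkp between old-OSKM and old mice (0.21) and Hk1 between old-OSKM and young mice (0.21, adjusted p = 0.71), where Pfkp was at 0.29 (adjusted p = 0.71).

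**Figure D5:**
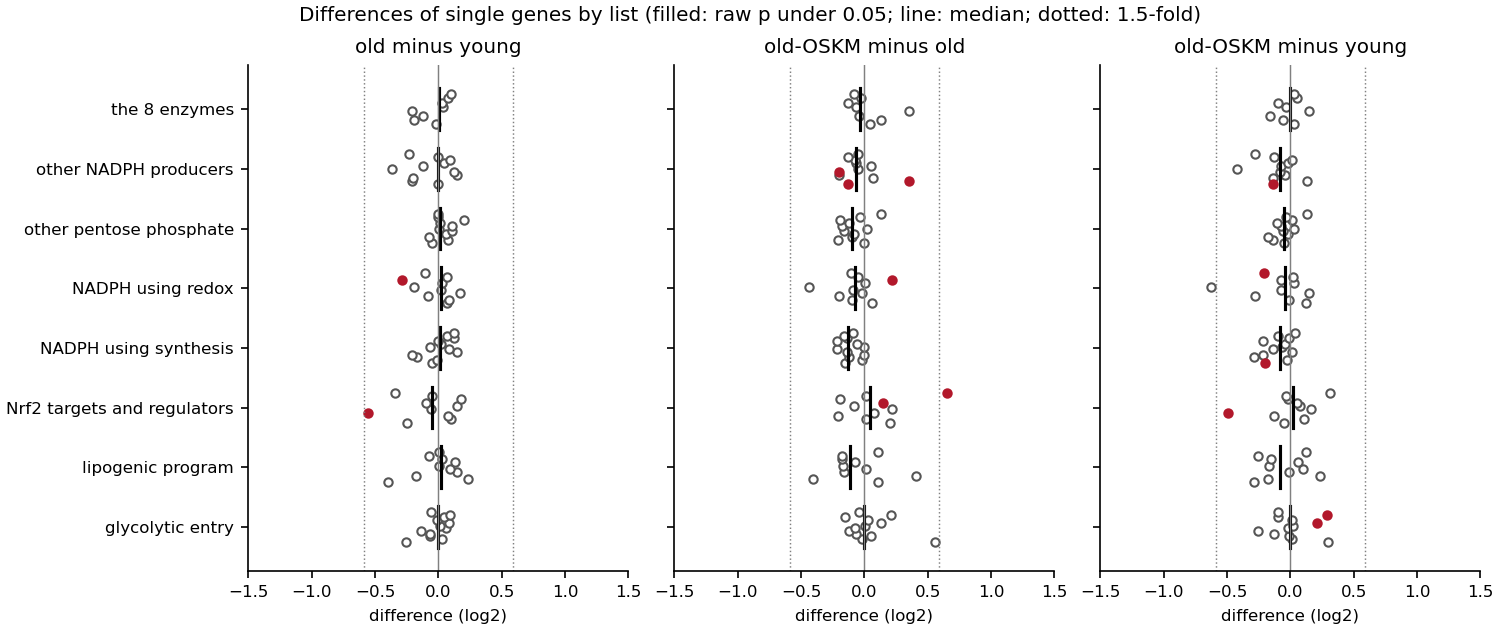
Differences in log2 RPKM (horizontal axes) of the 8 enzymes and of 76 genes in 7 related lists, 1 point per gene, for the 3 comparisons, with filled points at a raw p under 0.05 and a line at each list's median. The medians lie near 0 in every list, and 0 of these genes passed the rule for a call.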

How the data were processed

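RNA sequencing of pancreas was available for 13 mice, with 1 library per mouse after ribosomal RNA depletion. The authors aligned paired-end reads to mm10 with STAR 2.3.0e, estimated RPKM per isoform with Casper, summed them per Entrez gene, and log2 transformed and quantile normalized them. The deposited log2 RPKM were used as they are, for all 23366 genes, without a pseudocount or a filter. The table holds no counts or read totals. The methods give a nominal read number per sample, but the depth of each library is unknown. The correction by total reads named in the methods could therefore not be repeated. Quantile normalization gives all mice the same distribution, and a change in total RNA would not be seen.

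Groups came from the labels. Values were compared with limma 3.58.1 (R 4.3.3), with all 3 groups in a single fit and no covariate, and p-values are two-sided. A call needed both more than 1.5-fold and a raw p below 0.01, and p-values were adjusted by Benjamini-Hochberg over all genes. The fit was tested on simulated data. Correlations with marker levels used 100000 permutations of the mice (scipy 1.17.1). Positions and promoters are RefSeq, GRCm38.p6, the assembly of mm10.

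The 8 enzymes and all lists were chosen with earlier results of these data known. Named genes are the 8 enzymes, any called gene of the 7 pathway lists (there were 0) and the gene with the smallest p in each of these lists and comparisons, the 3 genes most like each enzyme, and the cassette factors with Pparg. Other genes of the lists with a raw p under 0.05, the called marker genes and G6pd2 were added after their values were seen. Alternatives were a repeated normalization, median centring, filters, pseudocounts, pairwise and robust fits, covariates, array weights and leaving out mice.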

Additional observations from a re-analysis of the deposited data

Results flagged for a closer look

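In 24 sets of values (8 enzymes in 3 groups), a mouse was called far from its group where its gap to the nearest mouse took more of the group's range than Dixon's 95% critical value allows (0.829 for 4 mice), and this held in 2 sets. Chance alone gives about 1 in 20. Both concern Taldo1. Old-OSKM replicate 4 was at 2.21 log2 RPKM, with a gap of 0.896 of the range. It is the library with the lowest value of all mice in 44.7% of genes, those near the floor included. Young replicate 3 was at 2.78, with a gap of 0.939 of a very narrow range. It is the mouse with hepatocyte transcripts, whose part in this gap was not tested.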

How the results depend on the processing

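The count of members called stayed at 0 in all 3 comparisons under each of the 28 alternative fits, and in the fit reported also at an adjusted p under 0.05 or at a raw p under 0.05 with no fold threshold. Under other fits single members did have a raw p under 0.05: with age Pgd in 2 of them and Taldo1 in 4, between old-OSKM and old mice Taldo1 in 3, Me1 in 1 and Nnt in 1, and between old-OSKM and young mice Tkt in 3 and Taldo1 in 1. The shares of all genes under those fits are not given here, so that these counts have no background beside them. The signs of single differences were less stable, as most lie near 0: of 669 values (24 differences under up to 28 alternatives), 69 had the opposite sign and 5 of the 24 differences never did. The cause was not tested. Without the mice of sample numbers 641 to 643, the differences were Me1 0.11, Nnt -0.014 and Mthfd1 -0.055 with age, and G6pdx -0.066, Idh1 -0.0027 and Tkt -0.047 between old-OSKM and young mice. Without old-OSKM replicate 4 and young replicate 3, the differences were Idh1 0.049 with age, and G6pdx 0.061, Mthfd1 0.079, Taldo1 0.13 and Tkt 0.14 between old-OSKM and old mice, and Nnt 0.0031 and Mthfd1 0.12 between old-OSKM and young mice. With the run of sample numbers (below 641, or 641 to 643) as a covariate, the differences were Nnt -0.0037 and Mthfd1 -0.0085 with age, and G6pdx -0.032, Idh1 -0.03 and Tkt -0.035 between old-OSKM and young mice. With the adipocyte level as a covariate, the differences were Nnt -0.0072 and Mthfd1 -0.0077 with age, and Me1 -0.15, Nnt 0.0098, Mthfd1 0.094, Taldo1 0.055 and Tkt 0.076 between old-OSKM and old mice, and Me1 -0.23, Nnt 0.0025 and Mthfd1 0.087 between old-OSKM and young mice. With array weights, the differences were G6pdx 0.016, Mthfd1 0.10, Taldo1 0.12 and Tkt 0.11 between old-OSKM and old mice, and Me1 -0.02, Mthfd1 0.11 and Taldo1 0.0059 between old-OSKM and young mice. Without old-OSKM replicates 1 and 4, the differences were Me1 -0.063, Nnt 0.045, Mthfd1 0.14, Taldo1 0.13 and Tkt 0.13 between old-OSKM and old mice, and Me1 -0.27, Nnt 0.073, Mthfd1 0.18 and Taldo1 0.012 between old-OSKM and young mice. Leaving out each mouse in turn gave ranges across 0 for Idh1 -0.1 to 0.049, Nnt -0.02 to 0.058 and Mthfd1 -0.04 to 0.081 with age, for G6pdx -0.19 to 0.061, Idh1 -0.0076 to 0.12, Mthfd1 -0.16 to 0.079, Taldo1 -0.11 to 0.13 and Tkt -0.1 to 0.14 between old-OSKM and old mice, for G6pdx -0.089 to 0.17, Pgd -0.14 to 0.011, Me1 -0.12 to 0.33, Idh1 -0.059 to 0.11, Mthfd1 -0.13 to 0.11, Taldo1 -0.23 to 0.011 and Tkt -0.026 to 0.21 between old-OSKM and young mice.

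Over all genes the number of calls depended on how low values were treated. It went from 207, 176 and 146 (with age, between old-OSKM and old, and between old-OSKM and young mice) to 16, 2 and 8 with a pseudocount of 1, to 116, 77 and 76 with a pseudocount of 0.1, to 44, 35 and 19 among genes with a mean log2 RPKM over 0 and to 136, 104 and 81 over -2. It was 335 with age without old-OSKM replicate 4 and young replicate 3. Between old-OSKM and old mice it was 74 with the adipocyte level as a covariate, 94 without old-OSKM replicate 1, 338 without replicate 2, 284 without replicate 3 and 80 without replicates 1 and 4, and between old-OSKM and young mice it was 253 without old-OSKM replicate 2. Adjusted p under 0.05 gave 19, 1 and 10 genes, and raw p under 0.05 gave 1290, 1885 and 1184. Me1, with a mean below 0, has no value under the filter at 0. Array weights and the removal of 2 mice at once were chosen after the data were seen.

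No paired analysis was possible because the labels give no replicate numbers, and the numbers used here only name the mice. Groups of 4 and 5 mice bound the differences as the intervals show. The depth of each library is unknown, and the counting error of low genes such as Me1 was not estimated.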
